A study of Mus musculus with 5 samples.

Results

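The transcription factors that direct innate lymphoid progenitors to the group 2 fate were followed in sorted dermal group 2 innate lymphoid cells (dILC2s). They were 10 of the 47729 genes counted, namely *Gata3*, *Rora*, *Bcl11b*, *Id2*, *Nfil3*, *Tox*, *Tcf7*, *Ets1*, *Gfi1* and *Zbtb16*. They were chosen by symbol for their known role, with earlier results of these data known. RNA of dILC2s was sequenced in 5 libraries, 3 from WT (C57BL/6) and 2 from *Rag1*-/- mice on the same background, all females aged 8 to 13 weeks. *Rag1*-/- mice lack the recombinase that assembles antigen receptor genes, and with it mature T and B cells. Cells were sorted from untreated skin without stimulation and pooled over animals, 30 WT and 16 *Rag1*-/- mice by the labels (the methods name another number for *Rag1*-/-), so that each library was a pool and p-values measure the spread between pools. The labels named the cells group 2 in the WT and group 3 in the *Rag1*-/- libraries, whereas the study described both as dILC2s.

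Innate lymphoid cells arise from bone marrow progenitors in which TCF-1 (*Tcf7*), NFIL3 and TOX act early, ID2 blocks the E proteins that drive B and T cell fates, and PLZF (*Zbtb16*) appears transiently in a common precursor. GATA3, RORα and BCL11B then specify and maintain ILC2s, with ETS1 and GFI1 supporting their expansion and response to IL-33. Mature ILC2s keep high GATA3 and RORα and little PLZF. In bulk RNA, fewer cells of a type and less RNA per cell cannot be told apart.

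Total counts were 32939428 to 39477243 in WT libraries, 38922750 in *Rag1*-/- pool 7 and only 8050562 in *Rag1*-/- pool 2. The libraries differed in other ways along the same line as the genotypes. Counts on 38 genes of all leukocytes took 0.150% to 0.352% of WT libraries and 1.16% and 1.04% of *Rag1*-/- pools 2 and 7, while those on 30 keratinocyte genes took 3.67% to 5.22% and 0.913% and 2.11%. Of the leukocyte rows tested, 27 of 38 were higher in *Rag1*-/- libraries and none lower (5.73% of all genes passed either way), and of 33 keratinocyte rows 12 were lower and none higher. *Rag1* itself was not lower in the libraries labelled *Rag1*-/-, its counts being 4, 0 and 5 for WT pools 5, 6 and 13 but 5 and 48 for *Rag1*-/- pools 2 and 7. The genotypes were therefore taken from the labels, and these counts do not verify them. The part of these differences in the results on the lineage factors was not tested.

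Relative to all RNA in the libraries, 9 of the 10 factors were at higher levels in both *Rag1*-/- libraries than in any WT library, and *Zbtb16* was lower in both, whereas on a scaling to leukocyte genes, described further on, 8 of the 10 were below 0. Levels are CPM, the counts of a gene scaled to the total counts of its library. Groups without overlap were common, in 45.9% of all genes tested, 21.9% higher and 24% lower. *Tcf7*, *Tox* and *Nfil3* rose in *Rag1*-/- libraries relative to all RNA, and the other 7 did not pass the threshold. It was set at 0.05 for the p-value of edgeR's quasi-likelihood test after Benjamini-Hochberg correction over 19011 genes. The size of the log2 fold change had to exceed 1. Among all genes tested, 3.57% were higher and 2.16% lower past this threshold. The median log2 fold change was 1.23 over the 10 factors and 0.02 over all genes. With DESeq2, *Id2* and *Ets1* passed as well, so that 5 of the 10 were higher and none lower, beside 6.4% of all genes higher and 6.56% lower. Without any 1 of WT pools 5, 6 and 13, or without *Rag1*-/- pool 2, no gene of the whole table passed (edgeR), while 3521 to 5200 genes had an unadjusted p-value under 0.05. Without *Rag1*-/- pool 7, *Tcf7*, *Tox* and *Ets1* passed as higher and *Zbtb16* as lower, beside 4.07% of all genes higher and 7.98% lower. Leaving out either *Rag1*-/- pool leaves 1 library in that group, which is then assumed to vary like the WT pools, and all p-values without pool 7 rest on the spread of the WT pools alone.

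**Figure D1:**
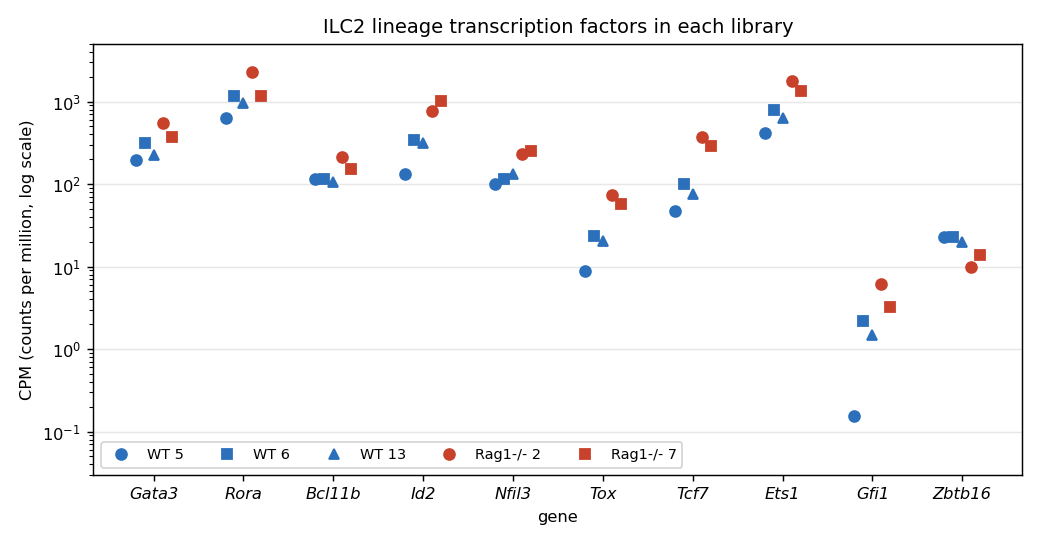
Level of each lineage factor in each library, in CPM on a log scale. Blue symbols are the 3 WT pools and red symbols the 2 *Rag1*-/- pools. The red symbols lie above the blue ones for 9 genes and below them for *Zbtb16*, which ranged from 19.8 to 22.7 CPM in WT and was 9.94 and 13.7 CPM in *Rag1*-/- libraries.

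*Gata3*, which encodes the zinc finger factor that specifies ILC2s and opens the type 2 cytokine locus, lies on chromosome 2 of GRCm38 (9857078 to 9890034, minus strand). It had 199, 319 and 229 CPM in WT pools 5, 6 and 13 and 558 and 369 CPM in *Rag1*-/- pools 2 and 7. Both *Rag1*-/- libraries were above every WT library, although pool 7 was only slightly above WT pool 6. The log2 fold change was 0.92 (SE 0.29, 95% interval 0.25 to 1.59, adjusted p = 0.0998, edgeR), short of the threshold. *Rora*, which encodes the nuclear receptor RORα needed for ILC2 development, spans 68653786 to 69388246 on the plus strand of chromosome 9. WT pools 5, 6 and 13 held 639, 1168 and 957 CPM of *Rora*, and *Rag1*-/- pools 2 and 7 held 2307 and 1187 CPM. The *Rag1*-/- libraries differed 1.94-fold from each other, more than the 1.90-fold between the mean levels, and pool 7 was close to WT pool 6. The difference of 0.94 on the log2 scale was short of the threshold (SE 0.37, 95% interval 0.08 to 1.81, adjusted p = 0.159, edgeR) and dropped to 0.43 without *Rag1*-/- pool 2.

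*Bcl11b*, which encodes a zinc finger factor that holds ILC2s to their fate, had nearly the same level in all WT pools, at 114, 117 and 106 CPM in pools 5, 6 and 13. *Rag1*-/- pools 2 and 7 had 213 and 154 CPM. Of the 10 genes it had the smallest ratio between the highest and the lowest WT library, 1.10, and the groups did not overlap. At 0.73 its log2 fold change was the smallest among the 9 genes with a positive value (SE 0.20, 95% interval 0.27 to 1.20, adjusted p = 0.0729, edgeR). With DESeq2 the adjusted p-value was 0.0159, but the difference, 0.70 on the log2 scale, stayed under 1.

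The windows before the RefSeq start sites of *Gata3* and *Rora* are shown because these factors define ILC2s, and neither window overlaps an annotated exon of its gene. Each holds 250 bases of GRCm38.p6, 5′ to 3′ on the strand of the gene, and the capitals mark matches to the motifs searched. The *Gata3* window is chr2:9878601-9878850 and the *Rora* window chr9:68653536-68653785. The RefSeq start of *Gata3* lies inside the wider span the table gives the gene, and the antisense gene *Gm13256* reaches into that window.
Gata3: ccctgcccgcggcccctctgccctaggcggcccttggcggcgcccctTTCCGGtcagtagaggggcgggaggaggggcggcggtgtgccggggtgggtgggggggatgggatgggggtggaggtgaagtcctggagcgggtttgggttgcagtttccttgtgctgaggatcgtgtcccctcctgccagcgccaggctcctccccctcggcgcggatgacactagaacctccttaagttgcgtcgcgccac
Rora: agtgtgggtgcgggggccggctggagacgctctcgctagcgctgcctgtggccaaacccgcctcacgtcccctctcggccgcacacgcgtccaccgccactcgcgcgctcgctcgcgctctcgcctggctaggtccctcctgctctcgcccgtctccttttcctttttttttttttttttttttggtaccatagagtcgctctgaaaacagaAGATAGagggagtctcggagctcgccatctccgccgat
The capitals in *Gata3* are an ETS site (CCGGAA on the opposite strand) whose first base lies 203 bases before the start, and those in *Rora* a GATA site (AGATAG) 38 bases before it. The *Gata3* window held no GATA site and the *Rora* window no ROR half-site.

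RefSeq windows were found for 7 of the 10 genes (9 windows, with a second start for *Tcf7* and *Gfi1*), and not for *Zbtb16*, *Ets1* and *Tox*. On both strands, GATA sites (AGATAA or TGATAA, and likewise AGATAG or TGATAG) were in 1 of the 9 windows and in 26.5% of all 32851 windows of that length. ETS sites (CCGGAA) were in 2 against 12% of all, ROR half-sites (AGGTCA) in 2 against 14%, and TCF/LEF sites (CTTTGAA or CTTTGAT or else CTTTGTT) in 1 against 12%. E-boxes (CANNTG), the sites of the E proteins that ID2 blocks, were in 5 of 9 against 66.2%. Sites of NFIL3 (TTACGTAA or TTATGTAA) and GFI1 (AATCAC) were in none, and in 0.931% and 9.14% of all windows. An ETS and an ROR match were both in the second *Tcf7* window, 24 and 13 bases before its start. The windows of the lineage factors were rich in CpG, with a median of 18 CpG (range 9 to 43) against 6 over all windows. With 9 windows these shares are descriptions of the letters only.

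*Id2* encodes the inhibitor of E proteins on which all innate lymphoid cells depend (chromosome 12, 25093801 to 25096092). It had 131, 347 and 311 CPM in WT pools 5, 6 and 13 and 775 and 1013 CPM in *Rag1*-/- pools 2 and 7. The WT libraries differed 2.65-fold, with pool 5 far below the others, and even the lower *Rag1*-/- library was above them all. Its log2 fold change of 1.80 lay just outside the threshold (SE 0.41, 95% interval 0.82 to 2.77, adjusted p = 0.0503, edgeR) but within it by DESeq2 (adjusted p = 0.000784). *Nfil3*, a basic leucine zipper factor that acts early in innate lymphoid progenitors (chromosome 13, 52967209 to 52981073), had 99.9, 117 and 132 CPM in WT pools 5, 6 and 13 and 233 and 250 CPM in *Rag1*-/- pools 2 and 7. Both groups were tight and well apart. *Nfil3* rose by 1.09 on the log2 scale (SE 0.20, 95% interval 0.62 to 1.56, adjusted p = 0.0332, edgeR), just above the threshold of 1, and by 0.94 (adjusted p = 0.0359, edgeR), under it, without *Rag1*-/- pool 7.

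*Tox* encodes an HMG-box factor of the innate lymphoid progenitor (chromosome 4, 6686353 to 6991557). Its levels were 8.97, 23.3 and 20.4 CPM in WT pools 5, 6 and 13 and 73.5 and 57.9 CPM in *Rag1*-/- pools 2 and 7. Every *Rag1*-/- library was more than 2 times above the highest WT library, and *Tox* rose by 1.93 on the log2 scale (SE 0.39, 95% interval 1.02 to 2.84, adjusted p = 0.0376, edgeR). *Tcf7*, which encodes the HMG-box factor TCF-1 (chromosome 11, 52252371 to 52283014), had the largest change of the 10 genes, 4.42-fold between the mean levels. WT pools 5, 6 and 13 held 47.0, 101 and 76.4 CPM and *Rag1*-/- pools 2 and 7 held 373 and 287 CPM. *Tcf7* rose by 2.17 on the log2 scale (SE 0.33, 95% interval 1.40 to 2.94, adjusted p = 0.0306, edgeR), at the 98.1th percentile of all genes tested.

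*Tcf7*, *Tox*, *Bcl11b* and *Ets1* also act in T cells. T cell genes summed to 102 to 232 CPM in WT and to 725 and 620 CPM in *Rag1*-/- pools 2 and 7. Of the 15 tested (of 17), 6 were higher and none lower, beside 3.57% higher and 2.16% lower among all genes tested. The median log2 fold change of the 15 was 1.43. The 6 were the T cell receptor genes *Trbc2* (2.43) and *Trac* (2.11), the CD3 complex genes *Cd3g* (2.23) and *Cd247* (1.71), and the signalling genes *Lat* (2.17) and *Zap70* (2.13), with adjusted p-values from 0.0306 to 0.0371 (edgeR). *Cd3e*, which encodes a chain of the T cell receptor complex, had a WT mean of 6.85 ± 1.28 CPM (SD, n = 3) and a *Rag1*-/- mean of 8.43 ± 1.43 CPM (SD, n = 2; log2 fold change 0.32, adjusted p = 0.553, edgeR). The list is named for a cell type that *Rag1*-/- mice lack in mature form, and the cells that held these transcripts were not identified. Their part in the results on the lineage factors was not tested.

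*Ets1*, the founding ETS family factor (chromosome 9, 32636221 to 32757820), had 418, 784 and 640 CPM in WT pools 5, 6 and 13 and 1780 and 1328 CPM in *Rag1*-/- pools 2 and 7. The groups were well apart, and both *Rag1*-/- libraries were above the highest WT library. At 1.36 on the log2 scale *Ets1* lay just outside the threshold (SE 0.31, 95% interval 0.63 to 2.10, adjusted p = 0.0503, edgeR) but within it by DESeq2 (adjusted p = 0.000924). *Gfi1*, a zinc finger repressor that supports ILC2 maintenance (chromosome 5, 107716657 to 107726036), was the scarcest of the 10, its counts being 6, 86 and 49 for WT pools 5, 6 and 13 but 49 and 126 for *Rag1*-/- pools 2 and 7. These counts are 0.155, 2.18 and 1.49 CPM and 6.09 and 3.24 CPM. Exact binomial 95% intervals, which cover counting error only, were 1.74 to 2.69 CPM in WT pool 6 and 2.70 to 3.85 CPM in *Rag1*-/- pool 7. WT libraries differed 14.1-fold in *Gfi1*, and a log2 fold change of 1.87 did not pass (SE 0.88, 95% interval -0.21 to 3.94, adjusted p = 0.231, edgeR).

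*Zbtb16* encodes PLZF, a factor of the common innate lymphoid precursor that mature ILC2s hold at low levels (chromosome 9, 48654311 to 48835945). It was the only one of the 10 genes with lower values in *Rag1*-/- libraries, at 22.7, 22.6 and 19.8 CPM in WT pools 5, 6 and 13 and 9.94 and 13.7 CPM in *Rag1*-/- pools 2 and 7. The exact binomial 95% interval in the shallow pool 2, from 80 counts, was 7.88 to 12.4 CPM and lay below all WT values. The difference of -0.83 on the log2 scale did not pass (SE 0.25, 95% interval -1.41 to -0.24, adjusted p = 0.0912, edgeR), and reached -1.19 (adjusted p = 0.0319, edgeR) without *Rag1*-/- pool 7. *Zbtb16* was at 22.7 CPM beside 5.22% keratinocyte counts in WT pool 5 and at 9.94 CPM beside 0.913% in *Rag1*-/- pool 2. Its order over the 5 libraries was that of the keratinocyte share, but WT pools 5 and 6 were level within counting error. Of all genes tested, 24% were lower in both *Rag1*-/- libraries than in any WT library, and how many follow the full order was not counted. The part of keratinocyte RNA in the *Zbtb16* difference was not tested. Per count on keratinocyte genes *Zbtb16* was not lower, at 0.0434%, 0.0537% and 0.0539% in WT pools 5, 6 and 13 and 0.109% and 0.0649% in *Rag1*-/- pools 2 and 7. All 10 factors were higher in this ratio in both *Rag1*-/- libraries, as were 72.1% of all genes tested, while 1.91% were lower.

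**Figure D2:**
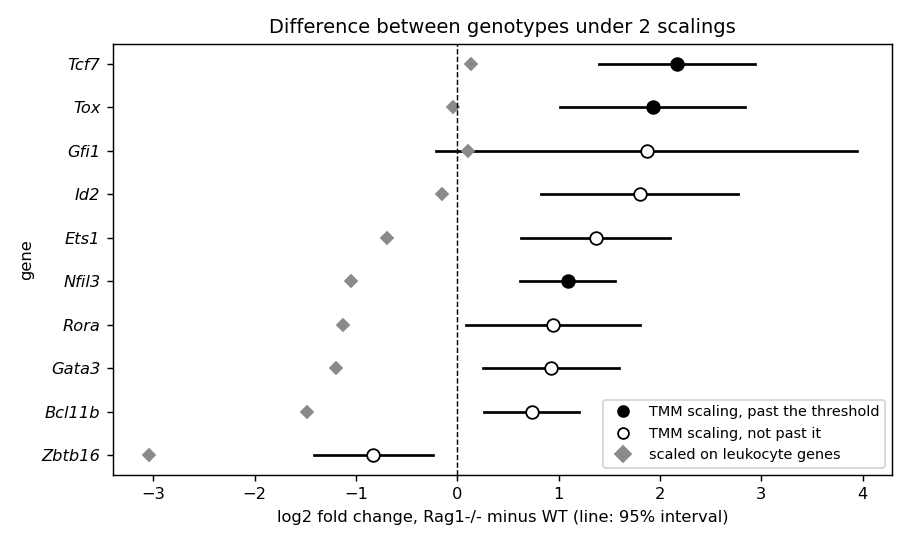
Log2 fold change of each lineage factor, *Rag1*-/- minus WT. Circles with lines are the values and 95% intervals with TMM scaling, filled where past the threshold (*Tcf7*, *Tox* and *Nfil3*), and grey diamonds are the values scaled on 38 leukocyte genes, which lie below 0 for 8 of the 10 genes.

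Scaled on the leukocyte genes in place of the whole library, 7 of the 9 positive log2 fold changes became negative. This scaling shifts all genes by nearly the same amount. It moved the median log2 fold change of all genes to -2.17, and that of the 10 factors to -0.87. The median of the factors thus stayed above that of all genes, which follows from such a shift and is no second result. *Zbtb16* lay below the median of all genes under both scalings. The values became 0.14 for *Tcf7*, 0.11 for *Gfi1*, -0.04 for *Tox* and -0.15 for *Id2*, and lay between -1.48 and -0.69 for *Bcl11b*, *Gata3*, *Rora*, *Nfil3* and *Ets1*. None of these passed, with adjusted p-values from 0.0589 for *Bcl11b* to 0.959 for *Tox* (edgeR). *Zbtb16* passed as lower, with a log2 fold change of -3.05 (adjusted p = 0.00119, edgeR), as did 70.1% of all genes, while 0.0842% passed as higher.

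The same scaling can be read in each library as a ratio to the counts on the leukocyte genes. This ratio is another form of the scaling and not a second result. Counts of *Tox* were 0.598%, 0.662% and 0.581% of those on the leukocyte genes in WT pools 5, 6 and 13 and 0.635% and 0.559% in *Rag1*-/- pools 2 and 7. *Tcf7* had 3.13%, 2.85% and 2.18% in WT and 3.22% and 2.77% in *Rag1*-/- libraries. These genes, with *Id2* and *Gfi1*, overlapped between the genotypes. *Gata3* had 13.2%, 9.06% and 6.52% in WT pools 5, 6 and 13 and 4.82% and 3.57% in *Rag1*-/- pools 2 and 7. Like *Gata3*, *Rora*, *Bcl11b*, *Ets1*, *Nfil3* and *Zbtb16* were lower in both *Rag1*-/- libraries than in any WT library, and so were 86.6% of all genes tested. None was higher, as in 0.689% of all genes. Against *Ptprc*, the gene of the leukocyte marker CD45, the groups were apart for 4 of the 10 genes (*Gata3*, *Rora*, *Bcl11b* and *Zbtb16*), all lower, beside 71.6% of all genes lower and 1.12% higher. With 3 libraries against 2, an exact permutation test has 10 splits and its smallest two-sided p is 0.1, so no ratio could pass at 0.05.

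Set against *Gata3* in the same library, 5 of the other 9 factors were higher in both *Rag1*-/- libraries, 1 was lower and 3 overlapped. This ratio takes the change of *Gata3* from that of every gene, so it restates the CPM values and is not a second result. *Rora* had 321%, 366% and 419% of the *Gata3* counts in WT pools 5, 6 and 13 and 413% and 321% in *Rag1*-/- pools 2 and 7, so that the proportion of these specifying factors overlapped between genotypes. *Bcl11b* and *Nfil3* overlapped as well. *Tcf7* counts were 23.7%, 31.5% and 33.4% of *Gata3* in WT pools 5, 6 and 13 and 66.8% and 77.7% in *Rag1*-/- pools 2 and 7. *Tox* went from 4.51%, 7.30% and 8.91% in WT to 13.2% and 15.7% in *Rag1*-/- libraries. For both genes each *Rag1*-/- library was above every WT library, as was also the case for *Ets1*, *Gfi1* and *Id2*, although *Id2* in *Rag1*-/- pool 2 (139%) was only just above WT pool 13 (136%). Of all genes tested, 4.69% were higher in this way relative to *Gata3* and 52.8% lower. *Zbtb16* was the only one of the 9 in the lower direction, from 11.4%, 7.09% and 8.66% of *Gata3* in WT to 1.78% and 3.71%.

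**Figure D3:**
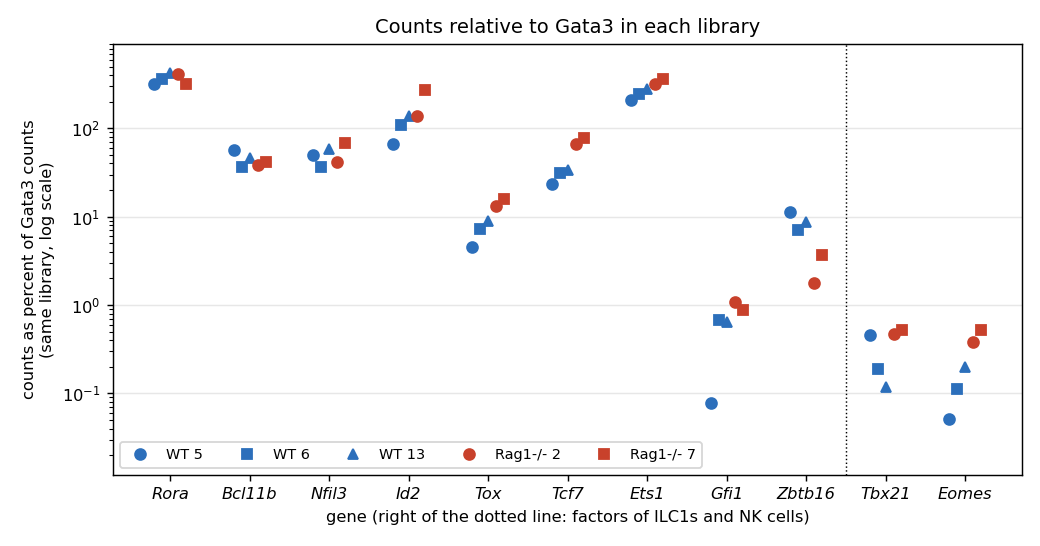
Counts of each gene as a percentage of *Gata3* counts in the same library, on a log scale, with *Tbx21* and *Eomes*, factors of ILC1s and NK cells, to the right of the dotted line. Blue symbols are WT and red symbols *Rag1*-/- pools. *Tcf7* lies at 23.7% to 33.4% in WT and at 66.8% and 77.7% in *Rag1*-/- libraries, whereas *Rora* overlaps.

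Factors of ILC1s and NK cells stayed far below *Gata3* in all libraries. *Tbx21*, the ILC1 factor T-bet, had a WT mean of 0.594 ± 0.315 CPM (SD, n = 3) and a *Rag1*-/- mean of 2.27 ± 0.482 CPM (SD, n = 2; log2 fold change 1.93, adjusted p = 0.0999, edgeR). *Eomes*, a factor of NK cells, had 0.304 ± 0.181 CPM (SD, n = 3) and 2.03 ± 0.112 CPM (SD, n = 2; log2 fold change 2.76, adjusted p = 0.0576, edgeR). Both stayed at or below 0.529% of *Gata3* counts. Relative to *Gata3*, both were nevertheless higher in each *Rag1*-/- library than in any WT library. *Tbx21* had 0.454%, 0.190% and 0.120% in WT pools 5, 6 and 13 and 0.467% and 0.522% in *Rag1*-/- pools 2 and 7. *Eomes* had 0.0519%, 0.111% and 0.199% in WT and 0.378% and 0.529% in *Rag1*-/- libraries. These ratios rest on few counts, from 9 to 75 for *Tbx21* and from 4 to 76 for *Eomes*.

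Levels of different genes were compared per length, as TPM, the share of a gene in its library after division by length, over the annotated exonic bases of GENCODE M21. *Id2* ranked first in all 5 libraries, with a mean of 377 ± 172 TPM in WT (SD, n = 3) and 1260 ± 191 TPM in *Rag1*-/- libraries (SD, n = 2). *Ets1* (253 ± 82.7 TPM), *Rora* (246 ± 77.8), *Gata3* (219 ± 62.8) and *Nfil3* (199 ± 27.6) followed in WT, where SDs are over 3 pools and these 4 neighbours did not differ beyond their spread. *Tcf7* ranked 6 of 10 in all WT libraries at 99.5 ± 38.5 TPM (SD, n = 3) and 4 of 10 in both *Rag1*-/- libraries at 435 ± 96.1 TPM (SD, n = 2), where it exceeded *Gata3* and *Nfil3* in pool 2 and *Gata3* and *Rora* in pool 7. *Bcl11b* ranked 7 in every library, and *Zbtb16* went from rank 8 in all WT libraries to below *Tox* in both *Rag1*-/- libraries, with 14.3 ± 1.40 TPM in WT (SD, n = 3) and 7.68 ± 1.45 TPM in *Rag1*-/- libraries (SD, n = 2). *Gfi1* was last in 4 libraries and just above *Zbtb16* in *Rag1*-/- pool 2.

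Each factor has relatives with a similar DNA-binding or interaction domain, and 25 were examined, of which 22 passed the filter on low counts. Of these, *Fli1* was higher and *Bcl11a* and *Gata6* lower in *Rag1*-/- libraries, beside 3.57% higher and 2.16% lower among all genes tested. The median log2 fold change of the 22 was -0.39. *Gfi1b*, with 2 counts in all, was not tested beside *Gfi1*. *Bcl11a*, the paralogue of *Bcl11b* that acts in B cell and progenitor development, had 22.7, 22.2 and 18.7 CPM in WT pools 5, 6 and 13 and 3.85 and 7.89 CPM in *Rag1*-/- pools 2 and 7. It fell by 1.77 on the log2 scale (SE 0.36, adjusted p = 0.0376, edgeR), whereas *Bcl11b* was at 0.73. Over the 5 libraries *Bcl11a* followed the order of the keratinocyte share, highest in WT pool 5 and lowest in *Rag1*-/- pool 2. WT pools 5 and 6 were close to each other, and how many of all genes follow this order was not counted. The part of keratinocyte RNA in the fall of *Bcl11a* was not tested. *Gata6*, a factor of other tissues than lymphocytes, had a log2 fold change of -2.10 (adjusted p = 0.0433, edgeR), from 6.01 ± 1.89 CPM in WT (SD, n = 3) to 1.31 ± 0.442 CPM (SD, n = 2). *Gata2*, a mast cell and progenitor factor, was at -0.97 without passing (adjusted p = 0.123, edgeR).

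*Fli1*, an ETS factor of blood cells, had 18.4, 33.5 and 31.8 CPM in WT pools 5, 6 and 13 and 89.8 and 65.5 CPM in *Rag1*-/- pools 2 and 7. It rose by 1.50 on the log2 scale (SE 0.30, adjusted p = 0.0369, edgeR), close to the 1.36 of *Ets1*, while *Ets2* was at -0.37 (adjusted p = 0.300, edgeR). *Hlf*, a bZIP relative of *Nfil3* that binds similar sites, had a WT mean of 449 ± 151 CPM (SD, n = 3) and a *Rag1*-/- mean of 1072 ± 95.3 CPM (SD, n = 2). On the log2 scale *Hlf* was at 1.29, short of the threshold (SE 0.32, adjusted p = 0.061, edgeR). The ID family was divided, with *Id3* at -0.77 (adjusted p = 0.270, edgeR) and *Id1* and *Id4* also below 0, against 1.80 for *Id2*. *Tcf7l2* was at -0.89 (adjusted p = 0.0575, edgeR), *Tcf7l1* at 0.78 (adjusted p = 0.173, edgeR) and *Tox4* at 0.30 (adjusted p = 0.368, edgeR), beside 2.17 for *Tcf7* and 1.93 for *Tox*. When scaled on the leukocyte genes no relative passed as higher and 16 of 22 passed as lower, a share near the 70.1% of all genes.

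**Figure D4:**
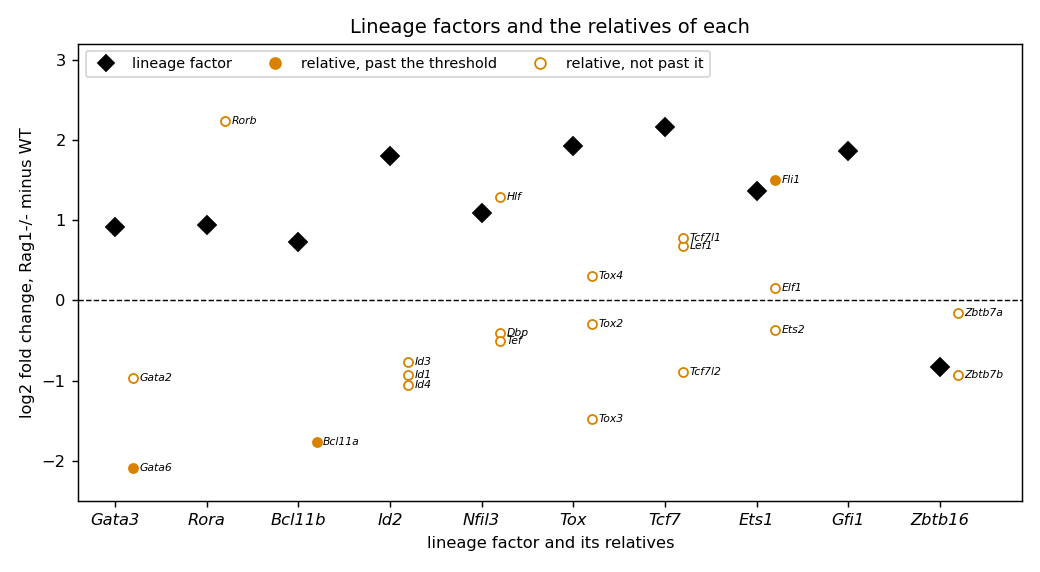
Log2 fold change, *Rag1*-/- minus WT, of each lineage factor (black diamonds) and of the tested relatives reported here (orange circles, filled where past the threshold), with TMM scaling; on the leukocyte scaling no relative passed as higher. *Bcl11a* (-1.77) and *Gata6* (-2.10) lie below their relatives *Bcl11b* and *Gata3*, and *Fli1* (1.50) lies beside *Ets1*. No relative of *Gfi1* was tested.

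Of 34 other regulators of lymphocytes, all tested, 4 rose and 2 fell in *Rag1*-/- libraries, beside 3.57% and 2.16% of all genes tested. Of the 34, 24 were above 0, as were 9775 of all 19011 genes. The median log2 fold change of the 34 was 0.48. *Runx3*, which encodes a Runt factor that sustains innate lymphoid and cytotoxic lineages, had 30.5, 60.1 and 48.7 CPM in WT pools 5, 6 and 13 and 183 and 136 CPM in *Rag1*-/- pools 2 and 7. It rose by 1.80 on the log2 scale (SE 0.30, adjusted p = 0.0309, edgeR). *Hhex* (1.98), *Batf* (1.63) and *Irf4* (1.56), the latter both factors of activated lymphocytes, also rose (adjusted p from 0.0353 to 0.0372, edgeR). *Ahr*, the aryl hydrocarbon receptor, was the clearest in the other direction, with 172, 166 and 140 CPM in WT pools 5, 6 and 13 and 69.7 and 68.0 CPM in *Rag1*-/- pools 2 and 7. It fell by 1.18 on the log2 scale (SE 0.20, adjusted p = 0.0306, edgeR), and *Prdm1*, which encodes BLIMP-1, by 1.23 (SE 0.28, adjusted p = 0.0481, edgeR). Both genes are also expressed by keratinocytes, and the part of such RNA was not tested. Scaled on the leukocyte genes, none of the 34 passed as higher and 17 as lower, against 70.1% of all genes lower.

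All 20 genes that mark ILC2s by their receptors and products had log2 fold changes above 0 with TMM scaling, as did all 38 leukocyte rows tested. The median of the 20 was 1.84, against 1.99 for the leukocyte rows and 1.43 for the T cell genes. The values of *Gata3*, *Rora* and *Bcl11b* were 0.92, 0.94 and 0.73. Of the 20 ILC2 genes, 5 passed as higher and none as lower, beside 3.57% and 2.16% of all genes tested. The 5 were *Crlf2* (1.37), *Il5* (2.79), *Il13* (2.36), *Areg* (2.03) and *Arg1* (2.41), with adjusted p-values from 0.0306 to 0.0429 (edgeR). On the leukocyte scaling the median of the 20 was -0.08, none passed as higher and 1 as lower. The genes whose log2 CPM, centred on the mean of the 5 libraries, lay nearest to that of *Gata3* were *Abcb1b*, an efflux transporter, *Sag*, a retinal arrestin, and *Gm4430* (a symbol that more than 1 gene of the table carries), with root mean square differences of 0.0413, 0.0511 and 0.0570.

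In GENCODE M21, 6 of the 10 factors shared no exonic base with another gene. The kit did not mark strand, so that reads from overlapping genes on opposite strands cannot be told apart. Of the genes annotated across the 10 factors, 5 shared exonic bases with them, at most 260 bases (*Gm11802* in *Tox*). These 5 had no more than 66 counts in any library, against at least 4493 counts of *Gata3* and 18574 of *Rora*, while *A430072P03Rik* over *Gfi1* had up to 12 counts where *Gfi1* had 126.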

How the data were processed

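RNA of sorted dILC2s was sequenced by the authors as single reads of 50 bases from unstranded poly(A) libraries. Per the labels, reads were aligned to GRCm38 with STAR 2.5 and counted per gene with featureCounts 1.5.0-p1, and the authors deposited these counts without normalization. The labels list GRCm39 as well. Of the 10 factors 8 had in the deposited counts the start and end of GENCODE M21 on GRCm38, and the coordinates given are those of the table. The deposited normalized table, a scaled form of the same counts, was not used. The deposited annotation of each count row was used for symbols.

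After filterByExpr, which left 19011 genes, and TMM scaling, WT and *Rag1*-/- libraries were tested by quasi-likelihood in edgeR 4.0.16 (R 4.3.3), and p-values were corrected over these genes by Benjamini-Hochberg. Standard errors were derived from the F statistic. The study used DESeq2, run here (1.42.0) as an alternative on the same genes. CPM are counts over the total counts of the library. TPM were computed from the exonic lengths of GENCODE M21, and promoter windows were taken from RefSeq (GRCm38.p6). The smallest level the depth can show, 3 counts, was 0.373 CPM in *Rag1*-/- pool 2 and at most 0.0911 CPM in the others, for counting error only. The fit was tested on simulated data.

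All 10 factors are named in full. Of their relatives, the one with the highest mean CPM in each family and those past the threshold are named, except 1 relative that is not reported here, and of the other regulators and the ILC2 genes those past the threshold. The marker lists of leukocytes, keratinocytes and T cells are given by their summed levels and counts, and other marker lists are not. *Tbx21*, *Eomes*, *Rag1*, *Cd3e* and the 3 genes nearest to *Gata3* were added by rule. The factors and lists were chosen with earlier results of these data known, and the ratios after the counts were seen. *Id1*, *Id4*, *Tcf7l1* and the 6 T cell genes past the threshold were named after their values were seen.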

Additional observations from a re-analysis of the deposited data

How the results depend on the processing

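The main analysis called 1090 of 19011 genes tested, 3 lineage factors, 3 relatives, 6 other regulators and 5 ILC2 genes. With DESeq2 these counts were 2464, 5, 6, 14 and 16. With no filter on low counts, which left 29909 genes tested, they were 2645, 5, 5, 12 and 18. Scaling on the leukocyte genes gave 13344, 1, 16, 17 and 1. With at least 10 counts in every library, which leaves out *Gfi1*, 5 lineage factors and 10 ILC2 genes passed, beside 1497 of all 14121 genes tested. With the robust fit 5 lineage factors passed, beside 1141 of all 19011 genes. With all libraries thinned to the depth of *Rag1*-/- pool 2, 5 lineage factors and 12 ILC2 genes passed, beside 1322 of all 14973 genes. In each of these settings that gave 5, they were *Tcf7*, *Tox*, *Nfil3*, *Id2* and *Ets1*. Leaving out each pool gave 0 to 2409 genes, 0 to 4 lineage factors, 0 to 8 relatives, 0 to 8 other regulators and 0 to 6 ILC2 genes. All values above 0 came without *Rag1*-/- pool 7, and the cause was not tested. Under the leukocyte scaling, which lowers all genes by its construction, the log2 fold changes of *Gata3* (-1.20), *Rora* (-1.13), *Bcl11b* (-1.48), *Id2* (-0.15), *Ets1* (-0.69), *Tox* (-0.0397) and *Nfil3* (-1.05) turned negative. RLE scaling, library size alone and the adjusted p-value alone changed no call of the 10 factors. No paired analysis was possible because the pools of the genotypes share no replicate number. The depth limits *Gfi1* most, with 6 counts in WT pool 5.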
